A study of Mus musculus with 9 samples.

Results

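The genes of vitamin D activation, inactivation and reception were followed in mouse oviductal epithelial cells given an estrogen or an estrogen receptor modulator. They were *Cyp27b1*, *Cyp24a1* and *Vdr*, 3 of the 23332 gene rows in the table of each sample, taken by exact gene symbol with 1 row each. The material was FVB MOE cells, a line of secretory oviductal epithelium from FVB mice that is 1 clone, and RNA-seq covered 9 samples, 3 for each of 3 conditions. All cells had been maintained in medium with 18.2 ng/mL of estradiol and were then kept for 48 h in medium without phenol red and with charcoal-stripped serum, renewed after 24 h. They were treated for 24 h with solvent (DMSO, 0.1%), with 1 nM estradiol (E2), the main natural estrogen, or with 100 nM 4-hydroxytamoxifen (4OHT), the active metabolite of tamoxifen and a selective estrogen receptor modulator. No sample received both ligands. The comparisons ask which genes respond to the estrogen and whether 4OHT acts like it or like solvent.

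Vitamin D reaches cells mainly as calcidiol, an inactive precursor made in the liver. *Cyp27b1* encodes the mitochondrial hydroxylase that turns calcidiol into calcitriol, the active hormone, and *Cyp24a1* encodes the hydroxylase that breaks both down. *Vdr* encodes the nuclear receptor for calcitriol, which binds DNA together with a retinoid X receptor, and *Cyp24a1* is its classic target gene. The kidney supplies most circulating calcitriol, but many epithelia carry *Cyp27b1* and *Vdr* and can make and sense the hormone locally.

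The values were deposited as FPKM, the fragments assigned to a gene, scaled by transcript length and by the size of the library, so levels can be set side by side between genes per length. The deposited tables hold no read counts, and the read totals that the study states for its libraries were not used here. The steps between the lowest values gave a relative depth of 1 to 1.18 in the DMSO samples, 0.838 to 1.07 in the E2 samples and 0.820 to 0.925 in the 4OHT samples, with DMSO replicate 1 set to 1. Each 4OHT sample was thus shallower than each DMSO sample. In 266 genes whose nonzero values had a median of 5 FPKM or more, at least 1 sample was listed at exactly 0, but none of the 3 vitamin D genes was at 0 in any sample. Of the 8 markers listed for secretory oviductal epithelium, 6 had a mean FPKM of 1 or more. *Pax8*, a Müllerian transcription factor, lay between 105 and 150 FPKM, whereas *Epcam* and *Cdh1* did not exceed 0.138 and 0.422. All 4 measured markers of ciliated cells also averaged 1 or more, *Foxj1* between 8.95 and 15.9, although the line is described as secretory. Of the 3 measured macrophage markers *Ptprc* did not exceed 0.0271, but *Csf1r* had 3.23 to 5.94 FPKM and *Cd68* 3.01 to 4.01. Of the stromal markers *Pdgfra* did not exceed 0.111, but *Col1a1* had 1.84 to 6.73 FPKM and *Dcn* 0.416 to 21.0.

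Per length, the receptor was the most abundant of the 3 transcripts. The mean FPKM over the 9 samples was 19.3 for *Vdr*, 3.40 for *Cyp27b1* and 0.0268 for *Cyp24a1*, and these means stood at percentiles 81.0, 59.1 and 35.9 of all gene rows. The lowest *Vdr* value exceeded the highest *Cyp27b1* value, and the lowest *Cyp27b1* value exceeded the highest *Cyp24a1* value. The 3 genes were chosen by their FPKM in these samples, seen before they were proposed, as well as by their roles, so their differences between conditions are described with their errors and carry no p-value.

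**Figure D1:**
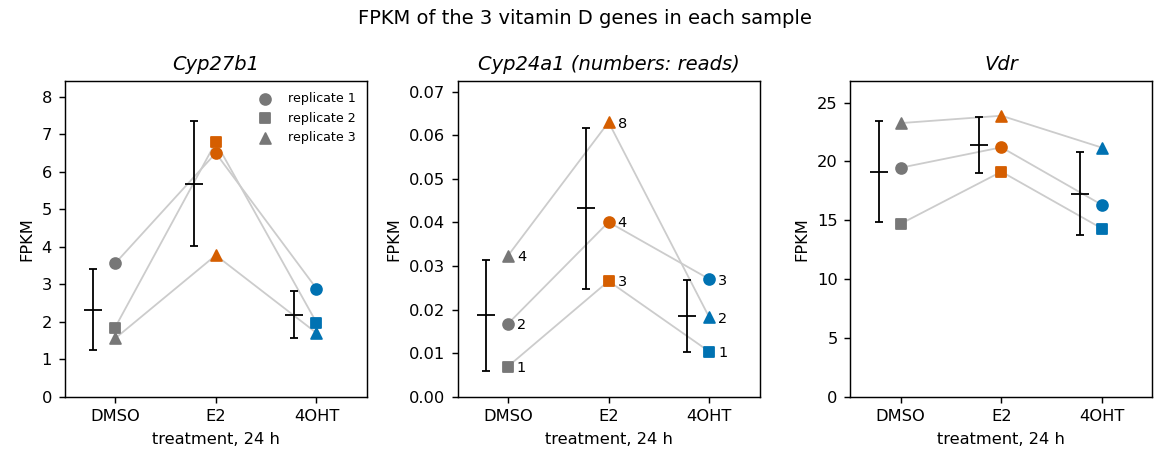
FPKM (linear axes from 0) of *Cyp27b1*, *Cyp24a1* and *Vdr* in each sample by treatment, with grey lines joining samples of the same replicate number and black bars giving mean ± SD (n = 3). The 3 E2 samples lie above all DMSO and 4OHT samples for *Cyp27b1*, whereas the *Vdr* groups overlap and *Cyp24a1* rests on the 1 to 8 reads printed beside its points.

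*Cyp27b1* (ENSMUSG00000006724.12) lies at chr10:127048250-127053006 on the plus strand of GRCm38, and its longest transcript has 9 exons and 2443 nt. The 250 bases before its RefSeq start (GRCm38.p6, chr10:127047996-127048245, plus strand) are shown beside those of *Vdr* (chr15:97908297-97908546, minus strand), because these are the stretches in which nearby control elements of the enzyme and its receptor can be read. Capitals mark a CCAAT box (ATTGG, on the other strand) and a TATATA box in *Cyp27b1*, and GGGCGG boxes and an E-box (CACCTG, on the other strand, printed CAGGTG) in *Vdr*. The letters are those of the reference strain and not of the FVB cells. The *Vdr* window lies inside the annotated gene, which ends at base 97910630 and has 6 transcripts. It belongs to a start downstream of that outer end, and the bases before the outer end were not read.
Cyp27b1: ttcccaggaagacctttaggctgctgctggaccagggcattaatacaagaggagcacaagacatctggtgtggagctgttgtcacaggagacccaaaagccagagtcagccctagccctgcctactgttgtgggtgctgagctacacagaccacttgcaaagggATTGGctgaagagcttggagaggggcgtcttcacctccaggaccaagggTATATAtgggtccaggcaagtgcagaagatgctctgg
Vdr: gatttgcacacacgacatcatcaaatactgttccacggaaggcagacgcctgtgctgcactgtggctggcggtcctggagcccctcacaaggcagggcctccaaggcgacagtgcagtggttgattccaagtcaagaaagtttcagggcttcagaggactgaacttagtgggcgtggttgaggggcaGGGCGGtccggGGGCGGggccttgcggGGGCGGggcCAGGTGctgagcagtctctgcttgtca
The TATATA of *Cyp27b1* began 37 bases before the start and its CCAAT box 86 bases before. In *Vdr* the GGGCGG boxes began 63, 52 and 36 bases before the start and the E-box 27 bases before. Among 32817 mouse promoter windows of the same length, searched on both strands, 5.25% held TATATA, 33.8% CCAAT, 32.7% GGGCGG and 17.2% CACCTG. The estrogen response element GGTCANNNTGACC (0.0640% of windows), its single arm GGTCA (35.2%) and the direct repeat GGTCANNNAGGTCA (0.0152%), a form read by the vitamin D receptor, had no match in either window. The windows also differed in base composition, with a GC content of 54.4% and 1 CpG in *Cyp27b1* and of 61.2% and 11 CpG in *Vdr*, against a median GC content of 52.4% over all windows.

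*Cyp27b1*, the activating enzyme, was the gene of the 3 that stood apart with E2. Its FPKM was 3.56, 1.85 and 1.56 in DMSO replicates 1 to 3, 6.50, 6.79 and 3.77 in E2, and 2.89, 1.98 and 1.70 in 4OHT. All E2 samples were above all DMSO samples and all 4OHT samples, and the 4OHT samples lay within the DMSO range. The means were 2.32 ± 1.08 in DMSO, 5.69 ± 1.66 in E2 and 2.19 ± 0.620 in 4OHT (SD, n = 3). The gap between the highest DMSO sample and the lowest E2 sample was small, 3.56 against 3.77, and these were samples of different replicate numbers. In bulk RNA, fewer cells of a type and less RNA per cell cannot be told apart.

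Within a replicate number, *Cyp27b1* in E2 was 1.83, 3.68 and 2.43 times its level in DMSO, with a geometric mean of 2.54. Against 4OHT the same ratios were 2.25, 3.43 and 2.22, with a geometric mean of 2.58. E2 was the higher sample in 3 of 3 pairs of both comparisons. In 4OHT over DMSO the ratios were 0.812, 1.07 and 1.09 and the geometric mean was 0.984, so that 2 of 3 pairs were higher and the direction was not shared.

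On the log2(FPKM + 1) scale, where a pseudocount of 1 shrinks the change of genes as low as this one, the difference of *Cyp27b1* between E2 and DMSO was 1.02 with a standard error of 0.27. Taking the replicate number as a block lowered that standard error to 0.14. The difference was 1.05 between E2 and 4OHT and −0.03 between 4OHT and DMSO, with the same standard errors. Over all fits that left out 1 sample or all samples of 1 replicate number, it stayed between 0.81 and 1.28 for E2 against DMSO and between 0.88 and 1.28 for E2 against 4OHT. For 4OHT against DMSO it ran from −0.19 to 0.23, which includes both signs. Roughly 160 to 630 reads per sample lay behind these values, as estimated from the transcript length and the relative depth, so counting error was small beside the spread between replicates.

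Much of the spread of *Cyp27b1* within DMSO came from replicate 1, which was 2.09 times the mean of replicates 2 and 3. The same ratio was 1.57 in 4OHT and 1.23 in E2. *Esr1*, the gene of estrogen receptor alpha, was also higher in replicate 1 of every condition, by 2.06 times in DMSO and 1.85 times in E2. *Pgr*, the progesterone receptor gene and a classic estrogen target, was 7.62, 2.06 and 3.19 times higher in replicate 1 in DMSO, E2 and 4OHT. The part of the *Esr1* level in the *Cyp27b1* level of replicate 1 was not tested. Without the 3 samples of replicate 1, the log2 difference of *Cyp27b1* was 1.18 for E2 against DMSO and 0.07 for 4OHT against DMSO.

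**Figure D2:**
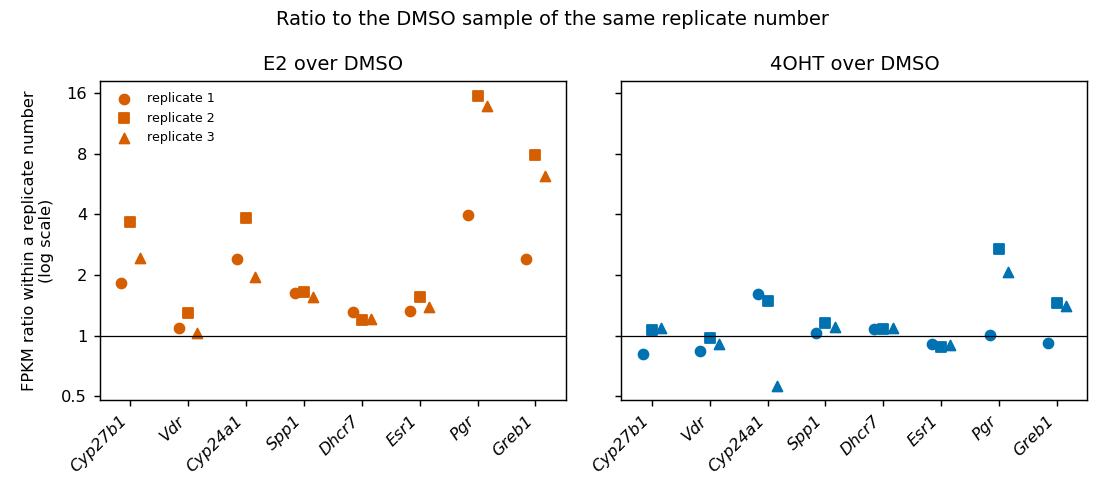
FPKM ratio to the DMSO sample of the same replicate number (log2-spaced axis) for E2 on the left and 4OHT on the right, with 1 point per replicate for the vitamin D genes, *Spp1*, *Dhcr7* and the estrogen-related genes *Esr1*, *Pgr* and *Greb1*. With E2 all points of *Cyp27b1* lie at 1.83 or more and those of *Vdr* at 1.30 or less, while with 4OHT the points of *Cyp27b1* lie on both sides of 1.

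The *Cyp27b1* ratios can be read beside those of established estrogen targets in the same pairs. *Pgr* was 3.98, 15.6 and 13.8 times higher in E2 than in DMSO, and *Greb1*, an estrogen-induced growth gene, 2.40, 7.91 and 6.20 times. For all 3 genes the smallest ratio was that of replicate 1, where the DMSO level was highest. In 4OHT over DMSO, *Pgr* had ratios of 1.01, 2.71 and 2.07 and *Greb1* of 0.925, 1.45 and 1.40. Those of *Cyp27b1* did not exceed 1.09.

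*Cyp24a1* (ENSMUSG00000038567.5), the inactivating enzyme, was close to undetected in every sample. It lies at chr2:170482708-170497145 on the minus strand, with 12 exons and a transcript of 3560 nt. Its FPKM was 0.0167, 0.00694 and 0.0323 in DMSO replicates 1 to 3, 0.0401, 0.0265 and 0.0630 in E2, and 0.0270, 0.0104 and 0.0182 in 4OHT. The DMSO and E2 ranges overlapped, and so did the E2 and 4OHT ranges by a narrow margin, 0.0265 against 0.0270.

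These values were whole multiples of the worth of 1 read to within 0.0437 of a read, and gave 2, 1 and 4 reads in DMSO, 4, 3 and 8 in E2 and 3, 1 and 2 in 4OHT. Summed over samples there were 7 reads in DMSO (95% Poisson interval 2.81 to 14.4), 15 in E2 (8.40 to 24.7) and 6 in 4OHT (2.20 to 13.1). Corrected for depth, E2 had 2.44 times the reads of DMSO with an exact 95% interval of 0.935 to 7.06, and 2.35 times those of 4OHT with an interval of 0.860 to 7.38. The ratio of 4OHT to DMSO was 1.04 (0.288 to 3.61). The intervals cover counting error only and describe how little so few reads fix these ratios. *Cyp24a1* shares 718 bp with *Pfdn4*, a chaperone subunit gene on the opposite strand with 52.1 to 67.6 FPKM. The libraries were directional, but whether the counting used strand is not given in the sources used here, and the origin of these few reads was not tested.

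*Vdr* (ENSMUSG00000022479.15), the receptor, lies at chr15:97854425-97910630 on the minus strand, with 10 exons and 4370 nt in its longest transcript. Its FPKM was 19.5, 14.7 and 23.3 in DMSO replicates 1 to 3, 21.2, 19.1 and 23.9 in E2, and 16.3, 14.3 and 21.2 in 4OHT. In each condition replicate 3 was the highest and replicate 2 the lowest, and the 3 groups overlapped. The means were 19.1 ± 4.29 in DMSO, 21.4 ± 2.38 in E2 and 17.2 ± 3.54 in 4OHT (SD, n = 3). About 2100 to 4500 reads per sample lay behind them.

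Paired by replicate number, the *Vdr* differences were small but each went 1 way. E2 was 1.09, 1.30 and 1.03 times DMSO (geometric mean 1.13) and 1.30, 1.34 and 1.13 times 4OHT (1.25), higher in 3 of 3 pairs. In 4OHT over DMSO the ratios were 0.837, 0.972 and 0.910 (0.905), higher in 0 of 3 pairs. The log2 differences were 0.17 for E2 against DMSO, −0.14 for 4OHT against DMSO and 0.31 for E2 against 4OHT. Their standard error was 0.19, and 0.067 with the replicate block, which removes the shared order of the replicates. Leaving out samples moved them between 0.0025 and 0.32, between −0.31 and 0.0087, and between 0.19 and 0.46. The first of these ranges nearly reached 0 and the second crossed it.

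*Vdr* and *Cyp27b1* therefore followed different orders of samples. *Cyp27b1* was lowest in replicate 3 of every condition, whereas *Vdr* was highest there. Across the 9 samples, the Pearson correlation of their log2 values was 0.25. It is given as a description, since the samples share 3 conditions and 3 replicate numbers.

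Among 11093 other genes without an exact 0, those with the pattern most like *Cyp27b1* over the 9 samples were *Prss12* and *Samd5* (r = 0.98 each), *Sprr1a* and *Maml2* (0.97 each) and a row that joins *1600002K03Rik* and *Cirbp* (0.97). *Sprr1a*, a cornified envelope gene, had 506, 173 and 101 FPKM in DMSO, 1347, 1052 and 679 in E2, and 401, 228 and 116 in 4OHT. Like *Cyp27b1*, it was higher in each E2 sample than in any DMSO or 4OHT sample and was lowest in replicate 3 of each condition. *Pgr* had r = 0.95 with *Cyp27b1*, *Greb1* 0.95 and *Esr1* 0.80. Such correlations over 9 samples reflect the treatment and the replicate differences that all these genes share.

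The genes most like *Vdr* were *Foxo1* (r = 0.98), a forkhead transcription factor, *Wdsub1* and *Nfatc4* (0.97 each), and *Arhgap5* and *Vps37a* (0.96 each). *Foxo1* had 9.28, 8.20 and 10.1 FPKM in DMSO, 9.55, 9.14 and 9.94 in E2, and 8.61, 8.16 and 9.12 in 4OHT. Its samples kept the same order by replicate as those of *Vdr*, highest in replicate 3 and lowest in replicate 2 of each condition. *Esr1* had r = 0.22 with *Vdr*. For *Cyp24a1* the closest was *Fam43a* (r = 0.95), but with 1 to 8 reads a sample this order of genes carries counting error.

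**Figure D3:**
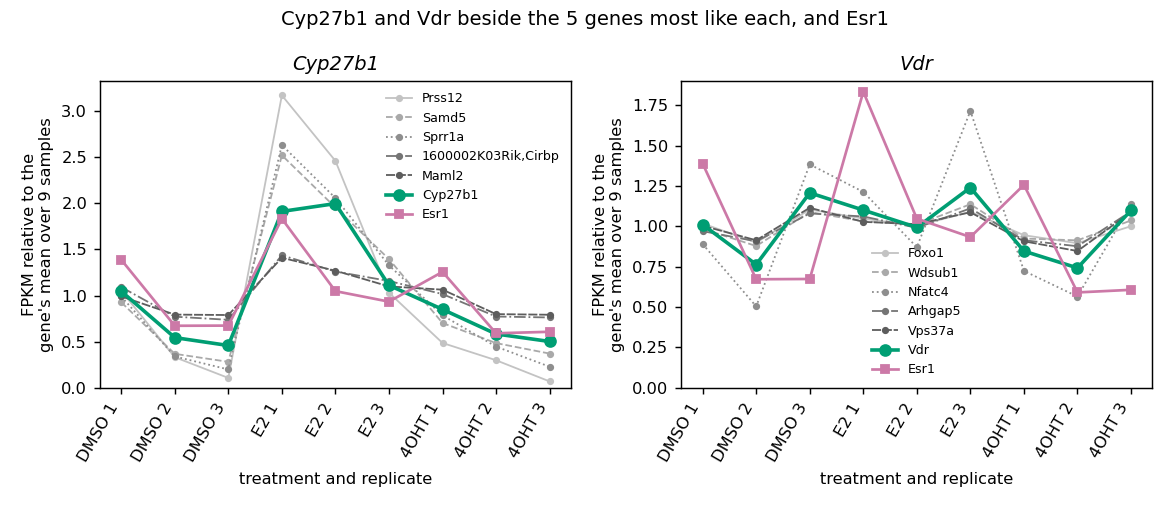
FPKM of *Cyp27b1* (left) and *Vdr* (right), in green, in each of the 9 samples, each gene divided by its own mean over the samples, with the 5 genes of highest Pearson correlation in grey and *Esr1* in pink. *Cyp27b1* and its companions are higher in each E2 sample than in the DMSO and 4OHT samples of the same replicate and are lowest in replicate 3 within each condition, whereas *Vdr* and its companions have their lowest value in replicate 2 and their highest in replicate 3 of each condition.

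The genomic neighbours of the 3 genes, 3 on each side in the annotation, were examined with limma on all 11339 tested rows and Benjamini-Hochberg adjustment. Without a block, 58 of these rows (0.512%) passed an adjusted p of 0.05 between E2 and DMSO, 0.494% higher and 0.0176% lower, and none of the 13 neighbours that were tested was among them. With the replicate number as a block, 1702 rows (15%) passed, 10.4% higher and 4.63% lower. The estrogen targets *Pgr* and *Greb1* did not pass without the block (limma adjusted p = 0.212 and 0.357) and passed with it (0.00253 and 0.00525). A gene that fails the fit without a block can thus still respond to E2. The labels do not say whether replicates were separate cultures, so these p-values measure the spread between these samples, which may be technical.

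Next to *Cyp27b1*, the ubiquitin ligase gene *March9* lies on the opposite strand 2005 bp beyond its end. *March9* had 23.1, 17.5 and 19.9 FPKM in DMSO, 30.3, 30.2 and 30.1 in E2, and 25.5, 21.8 and 20.8 in 4OHT, so that all E2 samples lay above the others. Its log2 fold change with E2 was 0.57 with a standard error of 0.11 (limma adjusted p = 0.0851, and 0.00757 with the block). *Tspan31*, a tetraspanin gene 14274 bp away, had a log2 fold change of 0.33 (limma adjusted p = 0.179, and 0.00770 with the block). Between *March9* and *Tspan31* lies *Cdk4*, a cell cycle kinase gene that overlaps *Tspan31*, whose log2 fold change was −0.07 (limma adjusted p = 0.689, and 0.306 with the block). *Mettl1*, 1885 bp upstream of *Cyp27b1*, had a value of 0.05 (limma adjusted p = 0.864, and 0.653 with the block).

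Beside *Cyp24a1*, *Bcas1*, 54863 bp away, had 1.11, 0.390 and 0.342 FPKM in DMSO, 5.16, 3.12 and 2.56 in E2, and 0.942, 0.435 and 0.286 in 4OHT. All E2 samples were above all others, and the log2 fold change with E2 was 1.51 with a standard error of 0.26 (limma adjusted p = 0.0708, and 0.000262 with the block). *Pfdn4*, which overlaps *Cyp24a1*, had a log2 fold change of −0.02 (limma adjusted p = 0.948). Around *Vdr*, the nearest gene *Hdac7*, a histone deacetylase gene 9923 bp away, had a log2 fold change of −0.08 (limma adjusted p = 0.618, and 0.161 with the block). *Rapgef3*, 86453 bp from *Vdr*, had 5.10, 6.39 and 6.53 FPKM in E2, below each of the DMSO samples. Its log2 fold change was −0.50 (limma adjusted p = 0.102, and 0.00577 with the block). With the block 5 of the 13 tested neighbours passed, *March9*, *Tspan31* and *Bcas1* higher and *Rapgef3* and *Slc48a1* lower in E2, a share to be read against the 15% of all rows.

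**Figure D4:**
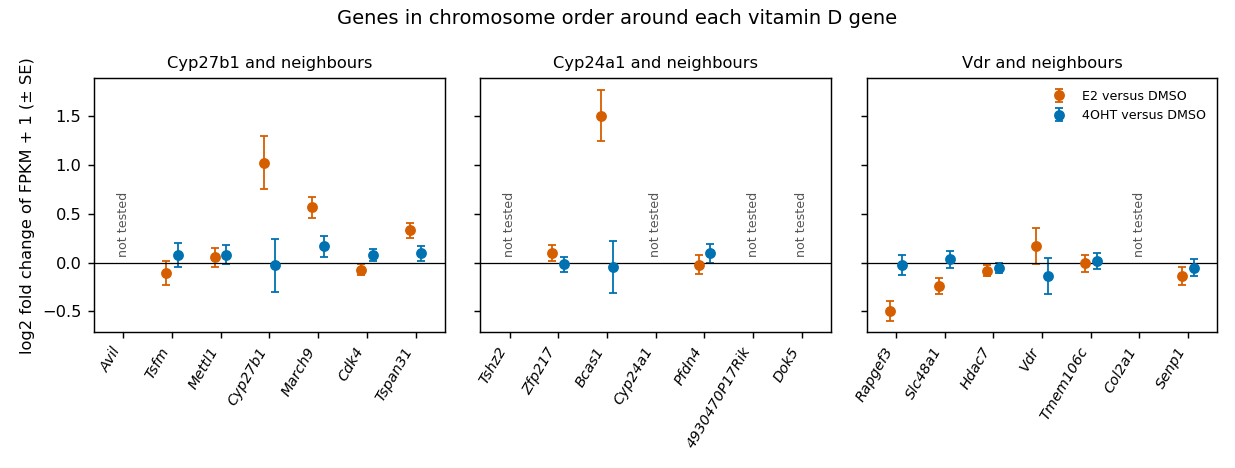
Log2 fold change of FPKM + 1 (± standard error of the fit without a block, 9 samples) for each vitamin D gene and the 3 genes on either side in chromosome order, E2 against DMSO in orange and 4OHT against DMSO in blue. *Bcas1* at 1.51, *Cyp27b1* at 1.02 and *March9* at 0.57 are the highest E2 values shown, *Rapgef3* at −0.50 is the lowest, and genes with too low an FPKM are written as not tested.

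The wider vitamin D pathway was read through a list of 43 genes in 8 roles, chosen for their roles and with earlier results of these data known. All 43 had a row, and 26 reached an FPKM of 1 in at least 3 samples and were tested. Between E2 and DMSO, 2 of the 26 had an unadjusted limma p under 0.05, beside 1237 of all 11339 rows. After Benjamini-Hochberg adjustment 0 of the 26 passed (smallest adjusted p = 0.329), against 0.512% of all rows. *Pgr* and *Greb1*, which are not in the list, did not pass this fit either. With the replicate block 2 of 26 passed, both higher in E2, where 15% of all rows passed and 10.4% were higher. The list's median log2 fold change was −0.01, that of all rows −0.00, and 12 of the 26 values were positive and 14 negative. Taken without sign, the log2 fold changes had a median of 0.0848 in the list against 0.0854 over all rows. For 4OHT against DMSO the same medians were 0.0855 and 0.0581, and for E2 against 4OHT 0.131 and 0.0943. The list was thus the larger of the 2 in those comparisons, and its medians include genes with exact zeros.

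Between 4OHT and DMSO, 0 of the 26 genes passed limma without the block (0 at an unadjusted p under 0.05) and 0 with it (3 unadjusted), and of all 11339 rows 0% passed in either fit (313 unadjusted without the block and 1480 with it). Between E2 and 4OHT, 0 of 26 passed without the block (3 unadjusted), where 0.159% of all rows did (1307 of 11339 unadjusted). With the block 6 of 26 passed, 2 higher and 4 lower in E2, where 16.2% of all rows passed, 8.63% higher and 7.6% lower. E2 against DMSO and E2 against 4OHT share the E2 samples.

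The pair of genes that passed with the block for E2 against DMSO stand at opposite ends of the pathway. *Spp1*, the osteopontin gene and a known target of the receptor in bone, had 795, 469 and 492 FPKM in DMSO, 1302, 776 and 767 in E2, and 824, 542 and 544 in 4OHT. Its groups overlapped because replicate 1 was high in each condition, and E2 was 1.64, 1.65 and 1.56 times DMSO within a replicate number. The log2 fold change of *Spp1* was 0.69 with a standard error of 0.29 (limma adjusted p = 0.440, and 0.000845 with the block). In a fit without the 3 samples of replicate 1, added after seeing the data, *Spp1* passed without a block at 0.68 (limma adjusted p = 0.0207). It was the 1 gene of the list to do so, where 125 of all rows passed against 58 with all 9 samples.

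*Dhcr7* encodes the reductase that turns the skin's vitamin D precursor into cholesterol instead. It had 32.8, 28.4 and 30.7 FPKM in DMSO, 42.9, 33.9 and 37.2 in E2, and 35.5, 30.8 and 33.5 in 4OHT. Each E2 sample exceeded each DMSO sample, while E2 and 4OHT overlapped. Its log2 fold change with E2 was 0.30 with a standard error of 0.096 (limma adjusted p = 0.329, and 0.00554 with the block). *Dhcr7* also belongs to cholesterol synthesis, so its place in the list is shared with that pathway.

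Genes of the steps before *Cyp27b1* had very different levels. *Cyp2r1*, the main enzyme that makes calcidiol, was listed at 0 in all 9 samples, which can be a failed estimate in these files, and *Cyp27a1*, another enzyme able to do so, had 0 to 2 reads. *Gc*, the plasma carrier of vitamin D, and *Cubn*, an uptake receptor, stayed at or below 0.639 and 0.726 FPKM. *Lrp2*, the uptake receptor megalin, was listed at 0 in 6 of 9 samples and at 10.1, 15.2 and 5.95 FPKM in DMSO replicate 3, E2 replicate 3 and 4OHT replicate 2. Its zeros, as for *Cyp2r1*, can be failed estimates. *Lrp2* was kept among the tested genes with its zeros as values, and its fold changes rest on those 3 samples. *Dab2*, an adaptor of those receptors, lay between 4.30 and 7.85 FPKM.

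The electron donors that both mitochondrial hydroxylases need were present. *Fdx1*, ferredoxin, lay between 18.8 and 22.2 FPKM with a log2 fold change of −0.01 with E2 (limma adjusted p = 0.963, and 0.906 with the block). *Fdxr*, ferredoxin reductase, was lower, at 1.53, 2.88 and 2.13 FPKM in DMSO, 1.22, 2.14 and 1.89 in E2 and 1.85 to 3.18 in 4OHT. It was lower in E2 than in 4OHT by a log2 difference of −0.29 (limma adjusted p = 0.562, and 0.0405 with the block).

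Of the partners of *Vdr*, *Rxra* had 10.7 to 13.9 FPKM and *Rxrb* 7.66 to 9.38, while *Rxrg* had at most 1 read a sample. *Rxra* was lower in E2 than in 4OHT by −0.19 (limma adjusted p = 0.385, and 0.0285 with the block). All 11 coregulators of the list were tested. *Snw1*, a coactivator that binds the receptor, was lower in E2 than in 4OHT by −0.13 (limma adjusted p = 0.492, and 0.0444 with the block), and no other coregulator passed in a comparison. By sign alone, 8 of the 11 were higher and 3 lower in E2 than in 4OHT, with a median of 0.0674 against −0.0146 over all rows. Between 4OHT and DMSO 1 was higher and 10 were lower, with a median of −0.0854 against 0.0251 over all rows. These comparisons share the 4OHT samples, and the share of each sign over all rows was not counted. Between E2 and DMSO 5 were higher and 6 lower. *Ep300*, an acetyltransferase, was listed at 0 in 4OHT replicate 1 and between 13.6 and 18.7 FPKM elsewhere. Its log2 differences of 1.55 for E2 against 4OHT and −1.53 for 4OHT against DMSO rest mainly on that 0. *Fgfr1*, listed as a regulator of the enzymes, was at 0 in DMSO replicate 1 and at 47.9 to 56.2 FPKM elsewhere. Its log2 fold change of 2.01 with E2 likewise rests mainly on a 0 (limma adjusted p = 0.637, and 0.319 with the block). *Pdia3*, which also binds calcitriol at membranes, was the most abundant gene outside the targets, at 190 to 218 FPKM, with a log2 fold change of 0.10 with E2 (limma adjusted p = 0.509, and 0.0528 with the block).

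Known targets of calcitriol other than *Spp1* held values in both directions. *Cdkn1a*, the p21 cell cycle inhibitor gene, was lower in E2 than in 4OHT by −0.19 (limma adjusted p = 0.408, and 0.0392 with the block), with 103, 110 and 108 FPKM in E2 and 122, 133 and 114 in 4OHT. *Thbd*, thrombomodulin, had a log2 fold change of 0.35 with E2 (limma adjusted p = 0.637, and 0.0577 with the block). *Txnip*, a thioredoxin inhibitor, differed between replicates more than between conditions, at 29.4, 16.2 and 7.84 FPKM in DMSO, and had a log2 fold change of −0.04 with E2. *Trpv6*, an epithelial calcium channel gene with 4 rows, summed to 2.97, 0.611 and 0.916 FPKM in DMSO, 4.23, 1.74 and 1.37 in E2 and 1.93, 0.853 and 0.675 in 4OHT, and no row of it reached the minimum for a test. *Calb1*, *Trpv5* and *Camp*, targets in kidney, gut and immune cells, had at most 1 read a sample. *Igfbp3* was listed at 0 in all 9, which, as for *Cyp2r1*, can be a failed estimate. *S100g*, a further target, had 1.73 and 0.879 FPKM in 4OHT replicates 2 and 3, was listed at 0 in the other samples and was not tested.

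**Figure D5:**
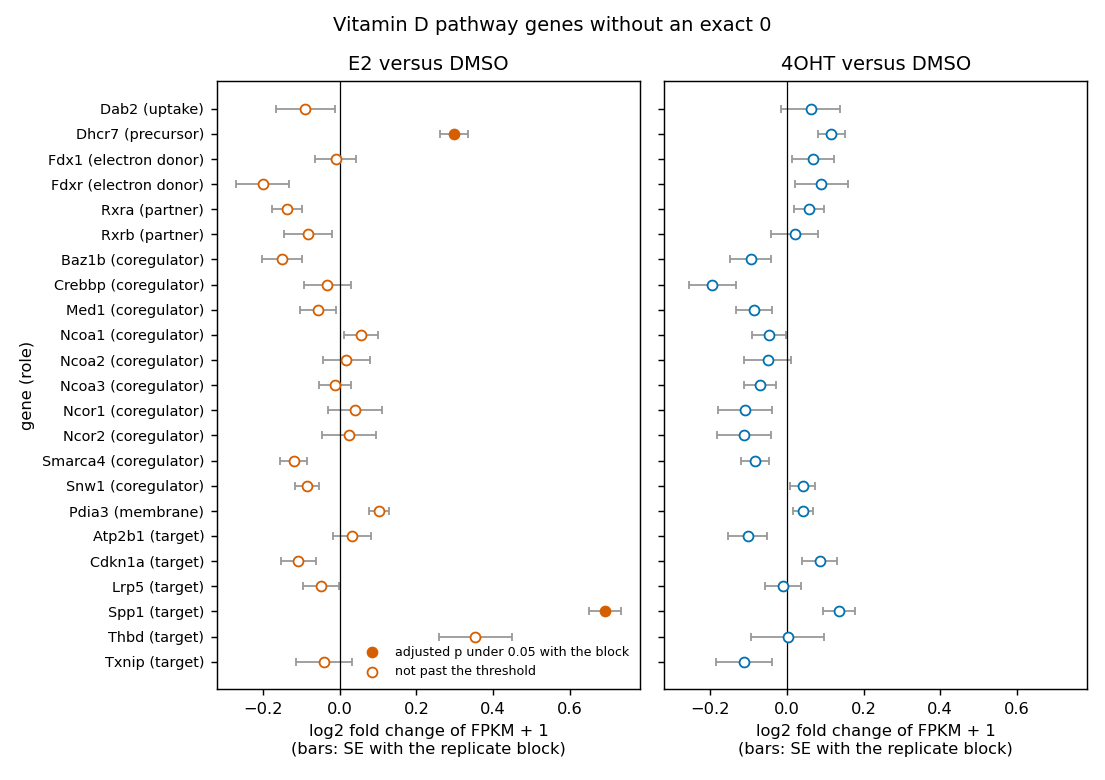
Log2 fold change of FPKM + 1 for the 23 tested pathway genes without an exact 0, E2 against DMSO on the left and 4OHT against DMSO on the right, ordered by role, with bars giving the standard error of the fit with the replicate block. The filled points are *Spp1* at 0.69 and *Dhcr7* at 0.30, which passed with the block, and the 4OHT points reach from −0.20 to 0.14 with none filled.

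The summed FPKM of the secretory markers was 1415 to 1558 in DMSO, 2322 to 2562 in E2 and 1473 to 1673 in 4OHT, and so separated the E2 samples in the same way as *Cyp27b1*. Keratins made up most of that sum, and of them only *Krt7* (748 to 927 FPKM in E2) and *Krt18* (607 to 799) separated the E2 samples. In *Krt8* and *Krt19* E2 overlapped with 4OHT, and in *Pax8* with both other conditions. *Ovgp1*, also in the secretory list, went the other way from DMSO, with 1.49, 2.01 and 1.44 FPKM in E2 and 1.99, 2.11 and 2.61 in DMSO. Its 4OHT values were 1.47, 1.70 and 1.92. Of the 5 stromal markers 2 averaged 1 or more, and the list summed to 3.65 to 7.79 in DMSO, 10.7 to 23.2 in E2 and 5.21 to 8.51 in 4OHT, through *Dcn*, with *Col3a1* and *Lum* near 0. None of the 3 endothelial markers averaged 1 or more, and their sum was 0.624 to 0.837 in DMSO, 1.17 to 1.40 in E2 and 0.722 to 0.852 in 4OHT, mostly *Kdr*. The sum of the macrophage markers was 7.62 to 9.91 in DMSO, 7.05 to 9.68 in E2 and 6.25 to 8.68 in 4OHT. That of the ciliated markers was 19.1 to 23.8, 15.3 to 20.6 and 19.7 to 23.8, but single members of it separated the E2 samples. *Foxj1*, the master regulator of motile cilia, had 8.95, 11.7 and 13.0 FPKM in E2, below every DMSO sample (13.6 or more) and every 4OHT sample (14.3 or more), and *Rsph1*, an axoneme gene, had 3.52 to 3.86 in E2, above every other sample (3.36 or less). The part of these marker differences in the *Cyp27b1* difference was not tested.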

How the data were processed

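RNA from 9 samples of FVB MOE cells was measured, 3 each for DMSO, E2 and 4OHT. The deposited FPKM values were made by the authors from directional 50 bp single-end poly(A) libraries with TopHat2 2.0.8b and Cuffdiff 2.1.1 (versions per the submitters' processing notes) against mm10 with UCSC genes. Such model-based estimates can fail for single genes, which may be listed at 0, and 293 rows join the names of several genes. Groups came from the sample labels. The 3 genes and all lists were chosen with earlier results of these data known. RefSeq also gives Vdr as an older name of Cyp27b1, so symbols were matched exactly.

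FPKM was tested as log2(FPKM + 1) with limma 3.58.1 in R 4.3.3 (trend, all 9 samples, 1 coefficient per condition, no scaling) on the 11339 rows that reached 1 FPKM in 3 or more samples, with Benjamini-Hochberg adjustment within a contrast. Cyp27b1 and Vdr passed that filter and Cyp24a1 did not. The script was tested on simulated data. No count model was run, because whole reads could be recovered only for low genes. For those, 75.0% of 2020 low rows could be solved as whole reads, and 97.1% of their values fell within 0.15 of a whole number, which gave the relative depth. Exact Poisson and conditional intervals at 95% were used for Cyp24a1.

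Same-numbered samples deviated together: over the 11094 tested rows without an exact 0 their correlation was 0.523 to 0.828 in 9 of 9 pairs, and over all tested rows 0.0527 to 0.293, over 0.1 in 5 of 9. The labels give a number only. The pairing was read from the rows without 0, before calls were compared, and blocked values are printed where they change a call. Alternatives were a pseudocount of 0.1, no filter, upper-quartile scaling, equal totals, the 6 samples compared, the block, exact zeros as missing, and left-out samples. Leaving out all samples of 1 replicate number was added after seeing the data. Named genes were the 3 genes, the pathway list, Pgr, Greb1 and Esr1, the 3 neighbours on each side and the 5 genes of highest correlation with each.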

Additional observations from a re-analysis of the deposited data

How the results depend on the processing

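The differences of Cyp27b1 and Vdr moved by less than 1 SD of the replicates under every alternative run, although those of 4OHT against DMSO took both signs with samples left out (−0.19 to 0.23 for Cyp27b1 and −0.31 to 0.0087 for Vdr). They could not move without the filter, with the block, with the 6 samples compared or with zeros as missing, as neither gene has a 0. For Vdr that SD was 0.257, so its fall from 0.17 to 0.0025 for E2 against DMSO stayed within it. Of the counts of calls, those not given here stayed within 1.5 times. The direction of single called genes was not followed through the alternatives. The difference of Cyp24a1 rose to 0.27 both against DMSO and against 4OHT in E2 with a pseudocount of 0.1, which only rescales 1 to 8 reads. For E2 against DMSO the count of called genes was 58, and 32 without the filter, 33 with equal totals, 8 with the 6 samples compared, 1702 with the replicate block, 2128 with the block and exact zeros as missing, and 6 to 125 with samples left out. For 4OHT against DMSO it was 0, and 3 with 6 samples, 22 with the block and zeros as missing, and 0 to 7 with samples left out. For E2 against 4OHT it was 18, and 10 with the lower pseudocount, 9 without the filter, 7 with 6 samples, 37 with zeros as missing, 1840 with the block, 2476 with both, and 0 to 72 with samples left out; the highest of both E2 counts, 125 and 72, came without replicate 1. In the vitamin D list 0 became 2 with the block and 4 with zeros also missing for E2 against DMSO (0 to 1 with samples left out), and 6 and 8 for E2 against 4OHT. The added genes were Thbd and Lrp2, and Lrp2 then rested on 3 samples, 1 per condition. Both larger counts thus include a gene whose own spread between samples was not measured. For E2 against 4OHT its samples also differed in replicate number. Leaving out any single sample other than DMSO replicate 1 moved a count of E2 calls over 1.5 times. The causes were not tested. Depth limits Cyp24a1, where 15 reads over the E2 samples leave a ratio to DMSO between 0.935 and 7.06.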
